A study of Mus musculus with 6 samples.

Results

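The genes of MHC class I antigen presentation were followed in bone marrow-derived macrophages (BMDMs) with and without zoledronic acid (ZA), a bisphosphonate drug used against bone resorption. They are 10 genes, H2-K1, H2-D1, B2m, Tap1, Tap2, Tapbp, Psmb8, Psmb9, Psmb10 and Nlrc5, and all 10 were found among the 35403 genes whose values could be read. The genes were chosen by symbol for their known role, but with earlier results of these data known. Counts of them beside all genes are therefore a description and not a test. All 10 were among the 9800 genes tested, whose FPKM (fragments scaled by the length of the gene and the total of the library) averaged 1 or more. Bulk RNA was sequenced from 3 Ctrl libraries, BMDMs without ZA, and 3 ZA libraries, taken 12 h after ZA stimulation. The BMDMs of both groups were grown from the femurs of wild-type C57BL/6 mice in medium with 10% serum and M-CSF, the macrophage growth factor, at 10 ng/ml for 7 days. The mice of the study were obtained as females at 6 weeks of age, and the ZA concentration behind these libraries is not given in the sources used here. The sources do not say whether the 3 libraries of a group came from separate mice or cultures, so p-values measure only the spread between these libraries, which may be technical.

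MHC class I molecules show peptides from inside the cell to CD8 T cells. A heavy chain (H2-K1 and H2-D1 are the classical ones of this mouse strain) pairs with B2m, and its peptide is cut by the proteasome, carried into the endoplasmic reticulum by the Tap1 and Tap2 transporter and loaded with the help of tapasin (Tapbp). Psmb8, Psmb9 and Psmb10 are the catalytic subunits of the immunoproteasome, which replace Psmb5, Psmb6 and Psmb7 of the constitutive one. Nlrc5 is the coactivator that switches class I genes on through a promoter module of X and Y boxes, and interferon gamma raises the whole set, in part through Irf1.

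Some promoters of the class I genes hold letters by which this module is known. Of these, 4 are shown because the 3 most abundant class I RNAs and the transporter gene Tap1 come from them. They are the bases directly before the start site in RefSeq (build GRCm38.p6), written 5′ to 3′ on the strand of the gene. For H2-K1 the upstream start site is used. A further start site lies downstream of it, and the bases before that one also hold a CCAAT, starting 6 bases before it. The capitals mark the Y box (CCAAT, or ATTGG on the other strand), the X2 site (TGACG), a kB site (GGGNNTTCC) and an interferon response element (GAAANNGAAA), all searched on both strands. The lines give H2-K1 at chr17:34000348-34000597 (minus strand), H2-D1 at chr17:35262844-35263093 (plus strand), B2m at chr2:122147437-122147686 (plus strand) and Tap1 at chr17:34187331-34187555 (plus strand).
H2-K1: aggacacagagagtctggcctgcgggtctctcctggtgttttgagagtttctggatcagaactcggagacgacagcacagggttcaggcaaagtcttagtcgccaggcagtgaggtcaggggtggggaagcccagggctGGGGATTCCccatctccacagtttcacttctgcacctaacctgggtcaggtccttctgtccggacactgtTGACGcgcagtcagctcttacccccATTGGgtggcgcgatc
H2-D1: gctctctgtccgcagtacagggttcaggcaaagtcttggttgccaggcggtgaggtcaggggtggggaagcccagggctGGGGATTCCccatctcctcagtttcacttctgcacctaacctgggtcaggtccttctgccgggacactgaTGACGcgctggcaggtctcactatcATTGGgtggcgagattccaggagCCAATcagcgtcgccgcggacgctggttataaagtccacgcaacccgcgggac
B2m: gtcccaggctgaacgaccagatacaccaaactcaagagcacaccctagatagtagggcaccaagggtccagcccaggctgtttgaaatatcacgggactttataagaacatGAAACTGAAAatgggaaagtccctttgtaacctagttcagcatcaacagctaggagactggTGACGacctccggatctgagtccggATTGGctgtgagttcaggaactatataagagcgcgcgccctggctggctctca
Tap1: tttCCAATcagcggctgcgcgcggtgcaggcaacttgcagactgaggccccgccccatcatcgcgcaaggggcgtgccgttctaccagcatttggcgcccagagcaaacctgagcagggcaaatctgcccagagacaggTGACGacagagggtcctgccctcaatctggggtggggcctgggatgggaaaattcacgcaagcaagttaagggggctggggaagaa

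In H2-K1, H2-D1 and B2m the X2 site starts 25 bases before the ATTGG of the Y box, a spacing held by 30 of 32851 RefSeq mouse promoters (0.0913%) over the 250 bases before the start site. In H2-K1 and H2-D1 a kB site stands another 70 bases further out, and over the 100 bases from the kB site to the end of the Y box 89 are identical in both genes. The Tap1 line is the whole stretch of 225 bases between the start sites of Tap1 and Psmb9, which lie head to head, so the same bases read on the other strand are the promoter of Psmb9. As printed, the CCAAT of Tap1 stands upstream of its X2 site, the opposite order to H2-K1, H2-D1 and B2m. The spacing of 25 bases is not held there. Of the 8 members with an entry in the promoter table, 6 held a Y box (33.8% of all promoters did) and 5 held the X2 site (17.8% of all). In both counts Tap1 and Psmb9 each add a member, although their matches are the same bases read on opposite strands. Psmb8 and Psmb10 held neither the Y box nor the X2 site, and Tapbp held a Y box without the X2 site. The kB site was found in 2 members (4.98% of all promoters) and the interferon response element in B2m alone (2.98%). These matches are letters in a window and say nothing about binding in these cells.

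The 6 libraries held between 41230600 and 42155808 fragments, so depth hardly differed, and the class I genes had between 1464 fragments (Psmb9, in its lowest library) and 187943 (H2-D1, in its lowest library). The summed FPKM of 8 macrophage markers lay between 23609 and 27519 across the Ctrl libraries and between 24497 and 28005 across the ZA libraries, most of it Lyz2. Of these markers 3 were higher and 0 lower at an unadjusted p under 0.05 (7.5% and 4.85% of all genes), and 0 passed after adjustment. The 3 were Adgre1 (F4/80), Csf1r (the M-CSF receptor) and Cd14, with log2 fold changes of 0.13, 0.11 and 0.12 (unadjusted p = 0.000532, 0.000373 and 0.0255, limma). The other 5 lay between -0.03 (Mertk) and 0.13 (Fcgr1), with Cd68 at 0.017. The 9 neutrophil and progenitor markers summed to between 34.6 and 49.7 FPKM in the Ctrl libraries and between 30.8 and 35.9 in ZA. Of 6 tested, 4 were lower at an unadjusted p under 0.05 (4.85% of all genes were), and Ly6g was at 0 in all libraries. Markers of dendritic, B and NK cells each summed to under 1 FPKM in every library. The 4 T cell markers with a value (Trac had none) summed to between 8.26 and 9.70 FPKM, nearly all of it Cd4, with Cd3e under 0.1. The 4 stromal markers summed to between 16.7 and 30.03 FPKM across the Ctrl libraries and between 15.1 and 21.7 across the ZA libraries, with Dcn lower at an unadjusted p under 0.05, and the 3 endothelial markers to between 4.56 and 5.55 and between 4.19 and 4.53. Among the latter, Cdh5 and Emcn were under 1 FPKM in every library, too low to be tested, and lower in all ZA libraries than in any Ctrl library. Kdr, the third and most abundant, went the other way, higher in all ZA libraries than in any Ctrl library. Its means were 3.57 FPKM in Ctrl and 3.76 in ZA (unadjusted p = 0.216, limma). The 3 erythroid markers summed to under 3 FPKM in every library. Whether these marker differences have a part in the values of class I genes was not tested, and in bulk RNA fewer cells of a type and less RNA per cell cannot be told apart.

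All 10 class I genes had a higher mean in ZA than in Ctrl, by 2.10% for H2-D1 up to 12.5% for Tap1, but the shifts were small and only H2-K1 passed the test across all genes. On the scale of log2(FPKM + 1), their log2 fold changes had a median of 0.098, against 0.010 over all tested genes, of which 56.9% had a higher mean in ZA. With limma and Benjamini-Hochberg adjustment over 9800 genes, 1 of the 10 was called (0.367% of all genes were called, 20 higher and 16 lower). At an unadjusted p under 0.05, 6 of the 10 were higher and 0 lower, against 7.5% of all genes higher and 4.85% lower. That count was 3 without Ctrl 1 and 3 without ZA 3. All 3 ZA libraries lay above all 3 Ctrl libraries for 5 of the 10 (H2-K1, B2m, Tapbp, Psmb10 and Nlrc5), against 11.4% of all genes.

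**Figure D1:**
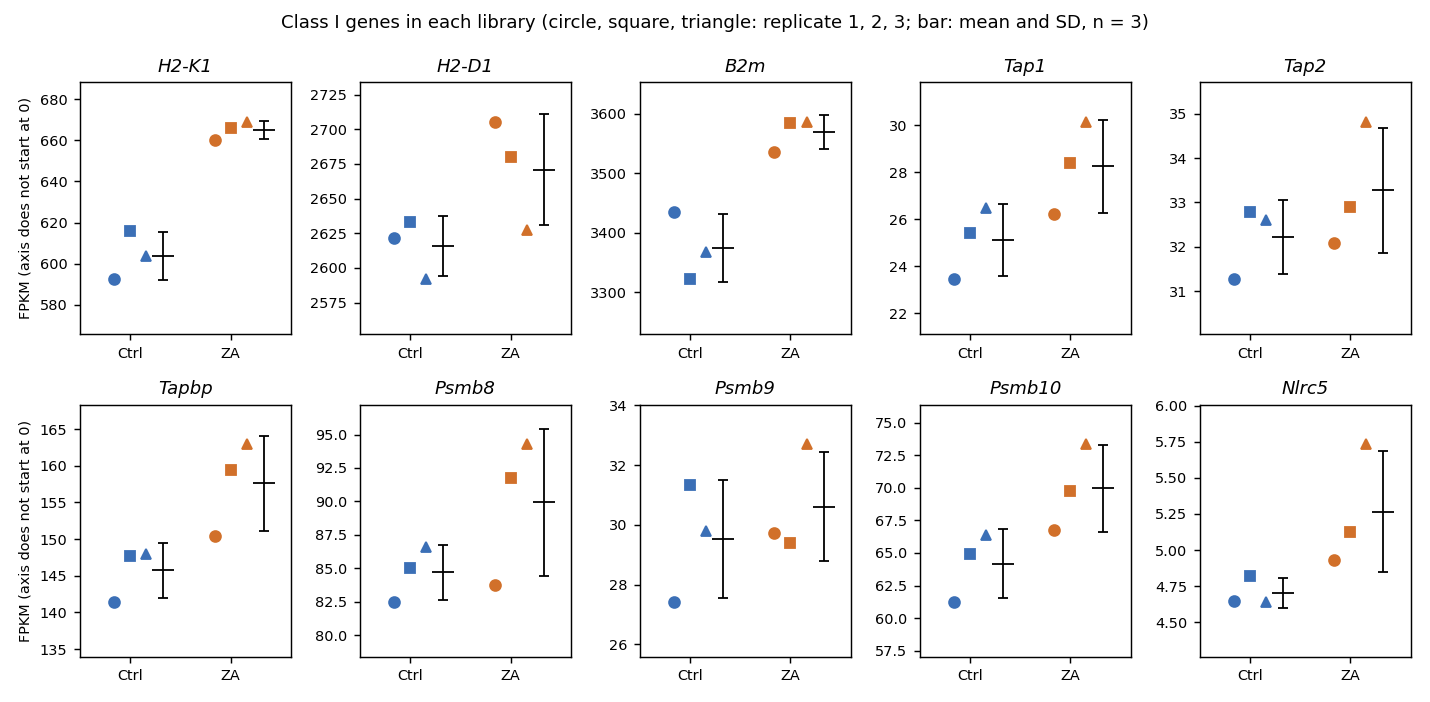
FPKM of the 10 class I genes in each of the 6 libraries, with 1 panel per gene and an axis that does not start at 0. Circles, squares and triangles are replicates 1, 2 and 3, Ctrl is blue and ZA orange, and the bar beside them is the mean with its SD (n = 3). All ZA points lie above all Ctrl points for H2-K1, B2m, Tapbp, Psmb10 and Nlrc5.

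Among the class I molecules themselves, H2-K1 was the gene with the clearest difference. It was read at 592, 616 and 604 FPKM in Ctrl 1, 2 and 3 and at 660, 666 and 669 FPKM in ZA 1, 2 and 3. The ZA libraries were tightly grouped and all stood above the Ctrl libraries, with a mean of 665 ± 4.58 against 604 ± 11.7 FPKM (SD, n = 3). H2-K1 rose by 10.1%, a log2 fold change of 0.14 (SE 0.021, adjusted p = 0.0487, limma). The call is close to the threshold and held in 4 of 14 alternative settings. It was lost without any one of the 6 libraries (adjusted p from 0.0534 to 0.200, limma) and when libraries were centred on their median (adjusted p = 0.0653, limma).

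H2-D1, the other classical heavy chain, was about 4 times as abundant as H2-K1 per length and hardly differed. Its values were 2622, 2633 and 2592 FPKM in the Ctrl libraries and 2705, 2680 and 2627 FPKM in the ZA libraries. The third ZA library lay below the second Ctrl library, so the groups overlapped. The log2 fold change was 0.03, with a 95% interval from -0.015 to 0.075 (adjusted p = 0.573, limma). Of the 150-base stretches of its longest GENCODE transcript, 1.79% also occur in H2-Q1, while those of the other 9 class I genes occur in no other gene, and how the authors placed fragments that fit several genes is not given in the sources used here.

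B2m, the light chain that all class I heavy chains need, was the most abundant of the 10 RNAs. It was at 3435, 3322 and 3368 FPKM in the Ctrl libraries and at 3536, 3584 and 3586 FPKM in the ZA libraries. The groups did not overlap, and the difference of the means was 5.74%. The log2 fold change of 0.08 (SE 0.020) had an unadjusted p of 0.00369 and missed the threshold after adjustment (adjusted p = 0.168, limma).

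For peptide transport and loading, Tap1 had the largest log2 fold change of the 10 genes but also a wide spread. Tap1, one subunit of the transporter, was at 23.4, 25.4 and 26.5 FPKM in the Ctrl libraries and at 26.2, 28.4 and 30.2 FPKM in the ZA libraries. The first ZA library fell just below the third Ctrl library. Its log2 fold change was 0.16 (SE 0.058, adjusted p = 0.308, limma), with a 95% interval from 0.031 to 0.30. Tap2, the other subunit, was at 31.3, 32.8 and 32.6 FPKM in the Ctrl libraries and at 32.1, 32.9 and 34.8 FPKM in the ZA libraries. Its groups overlapped, and the log2 fold change was 0.04 with an interval from -0.039 to 0.13 (adjusted p = 0.656, limma). It was 0.024 without Ctrl 1, 0.069 without ZA 1 and 0.012 without ZA 3. Tapbp (tapasin, which bridges the transporter and the heavy chain) was at 141, 148 and 148 FPKM in the Ctrl libraries and at 150.5, 159 and 163 FPKM in the ZA libraries. All ZA values lay above all Ctrl values, at a log2 fold change of 0.11 (SE 0.034, adjusted p = 0.244, limma).

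The immunoproteasome subunits differed among themselves in how well the groups separated. Psmb10 (MECL-1) was at 61.3, 64.9 and 66.4 FPKM in the Ctrl libraries and at 66.7, 69.8 and 73.3 FPKM in the ZA libraries. The lowest ZA library was just above the highest Ctrl library, and the log2 fold change was 0.12 (SE 0.042, adjusted p = 0.301, limma). Psmb8 (LMP7) was at 82.5, 85.0 and 86.6 FPKM in the Ctrl libraries and at 83.7, 91.8 and 94.3 FPKM in the ZA libraries. Its first ZA library stayed within the Ctrl range while the other two stood above it, and the log2 fold change was 0.08 (SE 0.043, adjusted p = 0.477, limma), or 0.13 without ZA 1 and 0.050 without ZA 3. Psmb9 (LMP2) was at 27.4, 31.3 and 29.8 FPKM in the Ctrl libraries and at 29.7, 29.4 and 32.7 FPKM in the ZA libraries. Here the groups overlapped most, with a log2 fold change of 0.05 and an interval from -0.077 to 0.18 (adjusted p = 0.754, limma). It was 0.00014 without Ctrl 1, 0.0033 without ZA 3, 0.093 without Ctrl 2 and 0.078 without ZA 2. Tap1 and Psmb9, which share the stretch of promoter printed above, thus had log2 fold changes of 0.16 and 0.05, and their intervals overlap.

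Nlrc5, the coactivator of the class I promoters, was the least abundant of the 10. It was at 4.65, 4.82 and 4.64 FPKM in the Ctrl libraries and at 4.93, 5.13 and 5.73 FPKM in the ZA libraries. All ZA libraries were above all Ctrl libraries, with the third ZA library the highest by far. The mean was 5.26 ± 0.418 against 4.70 ± 0.103 FPKM (SD, n = 3), an increase of the mean by 11.9%. The log2 fold change of 0.13 (SE 0.052) had an unadjusted p of 0.0343 and an adjusted p of 0.360 (limma), and without ZA 3 it was 0.080 (unadjusted p = 0.114, limma).

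**Figure D2:**
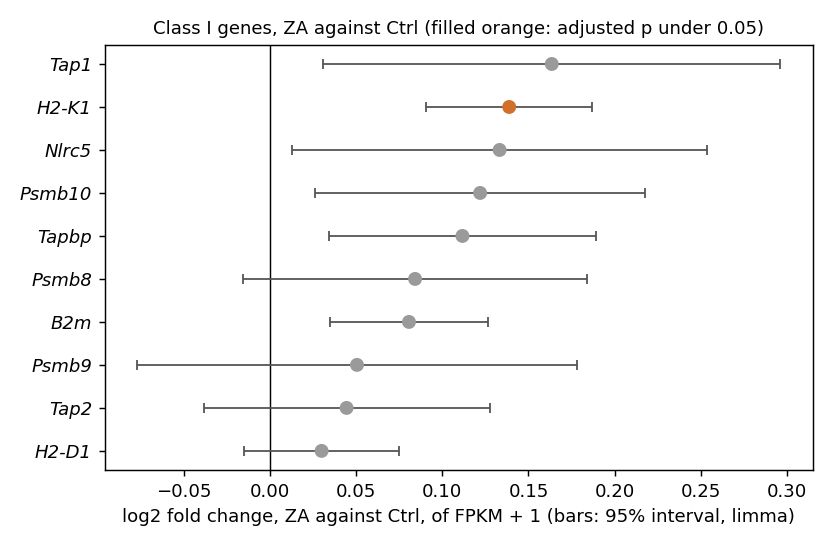
Log2 fold change of FPKM + 1, ZA against Ctrl, for each class I gene on a linear axis, with the 95% interval of limma as bars (n = 3 libraries per group). All 10 points lie to the right of 0, the intervals of H2-D1, Tap2, Psmb8 and Psmb9 include 0, and H2-K1, in orange, is the gene with an adjusted p under 0.05.

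The order of levels was the same in each library for the abundant genes. By mean FPKM over the 6 libraries, B2m (3472) stood above H2-D1 (2643), which was 4.17 times as high as H2-K1 (634). Tapbp (152), Psmb8 (87.3) and Psmb10 (67.1) followed, and none of these ranges overlapped its neighbour's. Tap2 (32.7), Psmb9 (30.1) and Tap1 (26.7) had ranges that overlapped their neighbours', although within each of the 6 libraries they stood in this order. Nlrc5 (4.98) was lowest, 5.35 times below Tap1. Together the 10 genes held 0.953% to 0.959% of all fragments in the Ctrl libraries and 1.0003% to 1.006% in the ZA libraries. Most of this was B2m, H2-K1 and H2-D1, which held 0.870% to 0.879% in the Ctrl libraries and 0.909% to 0.918% in the ZA libraries.

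Within a library, class I genes were also set against each other, as 5 ratios of FPKM. The ratio of Psmb8 to its constitutive counterpart Psmb5 was 0.865, 0.907 and 0.904 in the Ctrl libraries and 0.946, 0.975 and 1.06 in ZA, without overlap. Psmb10 to Psmb7 was 0.947, 0.981 and 1.01 in the Ctrl libraries and 1.06, 1.07 and 1.11 in ZA, again without overlap. Psmb9 to Psmb6 had means of 0.256 ± 0.0137 and 0.277 ± 0.0107 (SD, n = 3), and the groups overlapped. The constitutive subunits themselves had log2 fold changes of -0.07 for Psmb5 (unadjusted p = 0.0420, adjusted p = 0.384, limma), -0.07 for Psmb6 (unadjusted p = 0.0329, adjusted p = 0.356, limma) and -0.02 for Psmb7 (adjusted p = 0.834, limma; 0.0038 without ZA 1).

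Between the heavy chains, H2-D1 to H2-K1 was 4.43, 4.28 and 4.29 in the Ctrl libraries and 4.10, 4.02 and 3.93 in ZA, a difference of the means of -7.28%. Tap2 to Tap1 was 1.33, 1.29 and 1.23 in the Ctrl libraries and 1.22, 1.16 and 1.15 in ZA. The ZA libraries lay below the Ctrl libraries in both of these ratios, for Tap2 to Tap1 by a narrow margin. Groups of 3 against 3 cannot give an exact two-sided permutation p below 0.1, which the 4 ratios without overlap reached, while Psmb9 to Psmb6 gave an exact permutation p of 0.2. Adjusted over the 5 ratios by Benjamini-Hochberg, these exact permutation values were 0.125 and 0.2.

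**Figure D3:**
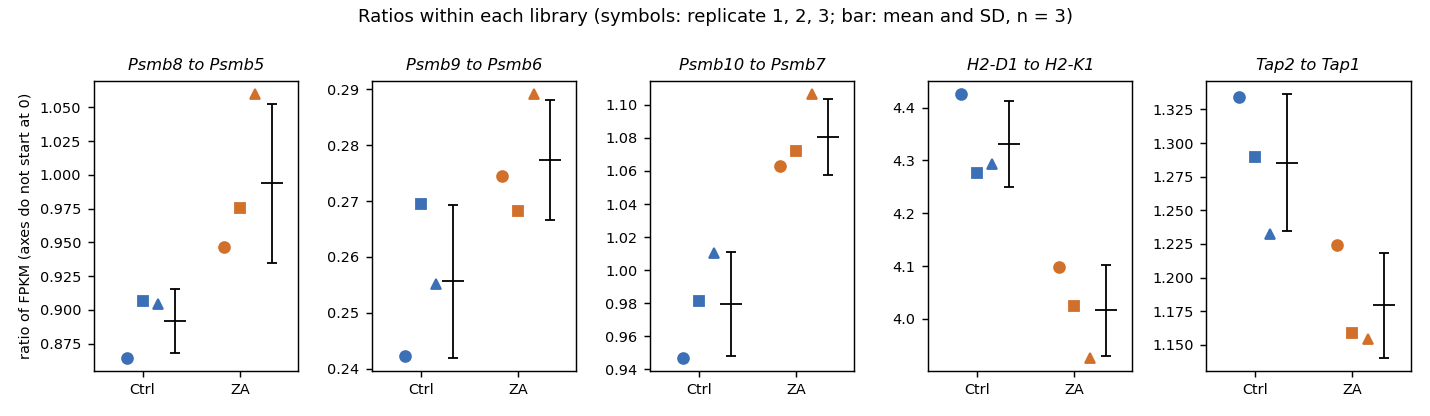
Ratios of FPKM within each library, with 1 panel per ratio and axes that do not start at 0. Circles, squares and triangles are replicates 1, 2 and 3, and the bar is the mean with its SD (n = 3). The first 3 panels set an immunoproteasome subunit over its constitutive counterpart, and in all panels except Psmb9 to Psmb6 the Ctrl and ZA points do not overlap.

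Of the class I genes 8 varied together between libraries, while H2-D1 and B2m did not within the groups. The mean of the z-scores of the 10 genes was lowest in Ctrl 1 (-1.09), at -0.37 and -0.49 in Ctrl 2 and 3, and at 0.088, 0.63 and 1.24 in ZA 1, 2 and 3. Each ZA library was thus above each Ctrl library, but ZA 1 was nearer to Ctrl 2 than to ZA 3. As a description over 6 libraries that share this group difference, the correlation of a gene with the mean of the other 9 was 0.983 for Tapbp, 0.967 for Psmb10 and 0.952 for Tap1. It was lower for B2m (0.703) and Psmb9 (0.641) and weak for H2-D1 (0.238). With the group means taken out, the median correlation of the deviations of a gene with those of each other member was -0.75 for H2-D1 and -0.18 for B2m, and between 0.65 (H2-K1) and 0.90 (Tap2) for the other 8. These correlations rest on 6 libraries and were not computed among genes outside the 10. Varying together is thus not shown to be particular to class I genes. H2-D1 was lowest in the third library of each group, where Tap1, Tapbp and Psmb10 were highest. Of 6598 other genes that averaged 5 FPKM or more, those closest to the mean z-score of the 10 were Igbp1 (r = 0.997), Slc2a6 (r = 0.996), Nono (r = 0.993), Lamp1 (r = 0.992) and Ogfrl1 (r = 0.990) over the 6 libraries. Their log2 fold changes ran from 0.017 (Lamp1) to 0.32 (Slc2a6), and none had an adjusted p under 0.05 with limma.

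The other genes of the pathway did not move as one. Of 71 genes in 6 lists, 65 were tested, 0 had an adjusted p under 0.05 with limma, and at an unadjusted p under 0.05 12 were higher and 7 lower. Of the 12 higher genes, 4 were other heavy chains and 5 belonged to the transcription list, beside 7.5% of all genes that were higher and 4.85% that were lower. The log2 fold changes of the 65 genes had a median of 0.011, and those of all tested genes 0.010.

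Among the other class I heavy chains, mostly nonclassical molecules, 7 of 12 were tested. At an unadjusted p under 0.05, 4 were higher and 0 lower (7.5% and 4.85% of all genes), and the median was 0.12. H2-T24 was at 16.9, 19.2 and 20.2 FPKM in the Ctrl libraries and at 21.0, 23.4 and 27.1 FPKM in the ZA libraries, without overlap, with a log2 fold change of 0.33 (SE 0.092, adjusted p = 0.209, limma). H2-Q4 was at 31.7, 32.3 and 34.4 FPKM in the Ctrl libraries and at 34.8, 38.9 and 38.4 FPKM in the ZA libraries, with a log2 fold change of 0.18 (SE 0.048, adjusted p = 0.201, limma). The other two were H2-T22 and H2-M3, which presents formylated peptides, both at 0.12. Not all of this list rose. Cd1d1 was lower in all ZA libraries than in any Ctrl library, at -0.10 (unadjusted p = 0.0947, limma), and Mr1 was at -0.04 with overlapping groups. The H2-Q and H2-T genes resemble one another in sequence, so fragments may be split between them and their values are uncertain.

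The loading and folding partners had a median of -0.06, with 1 of 7 higher and 2 lower at an unadjusted p under 0.05 (4.85% of all genes were lower). Tapbpl (TAPBPR, a second peptide editor related to tapasin) was at 8.40, 8.64 and 8.51 FPKM in the Ctrl libraries and at 9.60, 9.62 and 9.17 FPKM in the ZA libraries, a log2 fold change of 0.14 without overlap (adjusted p = 0.166, limma). Calr (calreticulin, a chaperone of the loading complex and of many other glycoproteins) was at 510, 507 and 514 FPKM in the Ctrl libraries and at 453, 467 and 486 FPKM in the ZA libraries. This was a log2 fold change of -0.12 without overlap (adjusted p = 0.113, limma). Pdia3 (ERp57, the oxidoreductase of the same complex) was at -0.08 (adjusted p = 0.334, limma). Tapasin and its relative were thus on the other side of 0 from calreticulin and ERp57, a contrast drawn after the values were seen. The rest of this list lay between -0.06 and 0.05, all with overlapping groups.

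Of the proteasome genes outside the 3 immunosubunits, 18 of 18 were tested, 1 was higher and 4 lower at an unadjusted p under 0.05 (4.85% of all genes were lower), with a median of -0.01. The higher one was Psme1, a subunit of the interferon-induced PA28 activator, at 0.12 (adjusted p = 0.369, limma). The lower ones were the core subunits Psma3 (-0.11, adjusted p = 0.244), Psmb3 (-0.10, adjusted p = 0.223), Psmb5 and Psmb6 (limma). Psme2, the partner of Psme1, was at 0.08 with overlapping groups.

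The 19 genes of class I transcription and interferon gamma signalling were all tested. At an unadjusted p under 0.05, 5 were higher and 0 lower (7.5% and 4.85% of all genes), and the median was 0.03. Irf1, a transcription factor that interferon gamma induces, was at 22.9, 24.7 and 23.8 FPKM in the Ctrl libraries and at 24.2, 26.4 and 28.0 FPKM in the ZA libraries, a log2 fold change of 0.13 with overlap (adjusted p = 0.365, limma). Rfx5, the DNA-binding partner of Nlrc5 at the X box, was at 0.03 with overlapping groups (adjusted p = 0.812, limma).

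Ifngr1 (a chain of the interferon gamma receptor) and Nfkb1 (the p105 and p50 subunit of NF-kB) were at 0.07 and 0.08 without overlap (adjusted p = 0.326 and 0.341, limma). The remaining genes of this list past the unadjusted threshold were Ciita, the class II counterpart of Nlrc5, at 0.16, and Socs1, an inhibitor of interferon signalling with under 3 FPKM in all libraries, at 0.25.

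At an unadjusted p under 0.05, the peptidases and cross-presentation genes had 0 higher and 1 lower of 12 tested (7.5% and 4.85% of all genes). That gene was Sec61a1, the main subunit of the endoplasmic reticulum translocon, at -0.08 without overlap (adjusted p = 0.326, limma), and its partner Sec61b was at -0.10 with overlap (adjusted p = 0.485, limma). The last list held 2 receptors of myeloid cells, of which Pirb is the one known to bind class I. Pirb was at 0.08 (unadjusted p = 0.0365, adjusted p = 0.369, limma) and Lilrb4a at 0.06 (adjusted p = 0.484, limma), both with overlap.

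**Figure D4:**
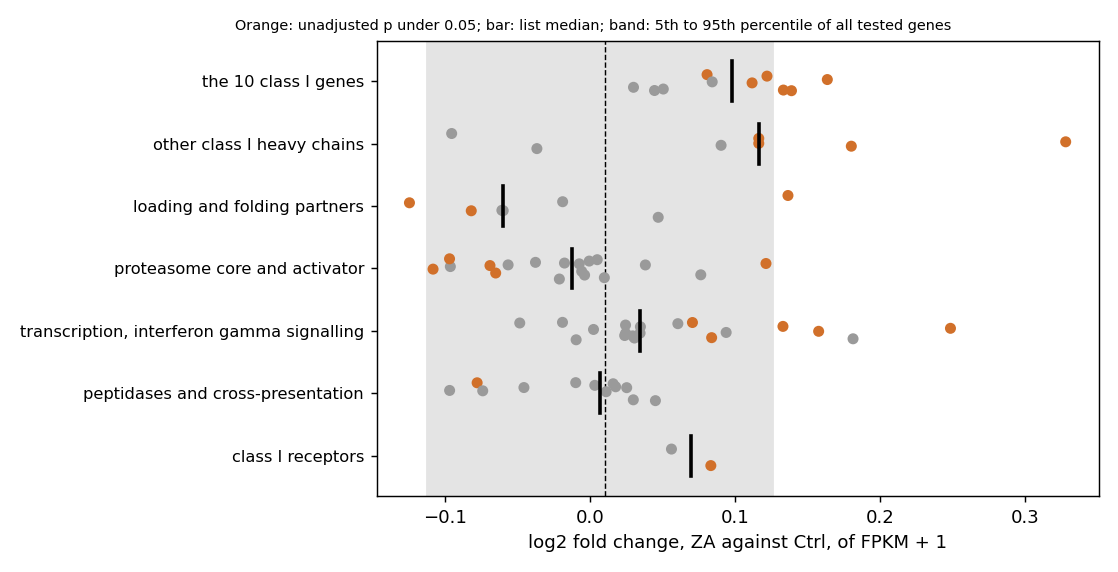
Log2 fold changes of FPKM + 1, ZA against Ctrl, for the 10 class I genes and the 65 tested genes of the 6 other lists, with 1 point per gene and a bar at the median of each list. Orange points have an unadjusted p under 0.05, the dashed line is the median of all tested genes (0.010) and the grey band runs from their 5th to their 95th percentile (-0.11 to 0.13). The 10 class I genes and the class I receptors lie to the right of the dashed line, while the genes of each other list lie on both sides of it. Of the 10, H2-K1, Tap1 and Nlrc5 lie beyond the band and the rest lie within it.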

How the data were processed

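RNA-seq values of 3 Ctrl and 3 ZA libraries of BMDMs (150 bp paired-end reads) were used, grouped by the sample labels. What the authors deposited is a single table of FPKM, that is, fragments normalised to gene length and library total. The submitters' processing notes name the build mm9, and the aligner, counter and annotation are not given in the sources used here. In all but 11 of 35434 rows the symbol and values run together, so the columns cannot be read until they are separated. Their unit was recorded as other for that reason, although the values are FPKM. Separation used the shape of the printed numbers and, if that left a choice, required whole fragments for all 6 values of a gene. This restored 35403 rows with 99.7% of the fragments of each library. The 31 ambiguous rows were left out. The 11 intact rows and 3000 of 3000 simulated rows were cut right. The simulated rows were modelled on rows already restored and written in the number formats that the separation assumes. They therefore cannot show how rows of another form, or rows like the 31 left out, would be cut.

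The test was limma (version 3.58.1, R 4.3.3, trended eBayes, two-sided) on log2(FPKM + 1) for the 9800 genes averaging 1 FPKM or more. Benjamini-Hochberg adjustment ran over all of them, with a threshold of 0.05. The fit was tested on simulated data: of 9800 genes, 200 were given a 2-fold change and 200 of these were called, along with 11 unchanged ones. A 2-fold change is far above any shift of the class I genes. The simulation therefore does not show how often shifts of their size would be called. The pseudocount of 1 understates fold changes at low FPKM. The gene of median length (3422 bases) with 3 fragments, taken as the smallest amount, has an FPKM of 0.0211. Libraries of a group were not duplicates (chi-square per gene from 3.52 to 9.73). The class I genes and the pathway lists were chosen with earlier results of these data known. The genes named are the 10 class I genes, the top 2 of each list by absolute moderated t and any called, the constitutive subunits, Rfx5 and Irf1, and the 5 genes closest to the mean z-score. A gene under this rule is not reported here. H2-T22, H2-M3, Cd1d1, Mr1, Pdia3, Psme1, Psme2, Ciita and Socs1 were named after their values were seen. Alternatives were a pseudocount of 0.1, no filter, a filter of 5, centring, quantile normalization, a prior without a trend, the replicate block, voom on recovered fragments and leaving out each library. Promoter letters came from RefSeq tables. Python 3.11.15, NumPy 2.4.6, pandas 2.3.3 and Matplotlib 3.10.9 were used.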

Additional observations from a re-analysis of the deposited data

How the results depend on the processing

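All 10 class I genes kept a higher mean in ZA in the alternatives tried, except that B2m was at 0 under quantile normalization, where it holds the same rank in every library. Nlrc5 gives no value under a filter of a mean FPKM of 5. The adjusted call of H2-K1 held in 4 of 14 alternatives (pseudocount 0.1, filter of 5, replicate block and voom), and the class I genes called dropped from 1 to 0 with no filter, median centring, quantile normalization and a prior without a trend. Over all genes, 36 calls (20 higher) became 1 (1 higher) with no filter, 11 higher with centring, 20 (10 higher) with quantile normalization, 1 (0 higher) with a prior without a trend and 123 (50 higher) with voom. The pathway partners at an unadjusted p under 0.05 went from 12 to 7 higher with centring and from 7 to 4 lower without the trend, and voom called 1 partner, Calr. Slc2a6 was called with voom (adjusted p = 0.0415) and with the replicate block (adjusted p = 0.0391). The cause of these shifts was not tested.

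Same-numbered libraries deviated together with correlations of 0.284, 0.0393 and 0.280, so the numbers do not establish pairs, although 6 of 6 libraries correlated best with their own number. With the replicate block 78 genes were called (41 higher), 1 partner (H2-T24) among them, and the adjusted p was 0.0360 for H2-K1, 0.0508 for Tap1, 0.0644 for Psmb10 and 0.0651 for Tapbp.

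Leaving out each library in turn gave 0 to 25 genes called (0 to 14 higher), and 0 class I genes each time. The class I genes higher at an unadjusted p under 0.05 were 3 to 7, with 3 without Ctrl 1 and 3 without ZA 3. The pathway partners were 5 to 14 higher and 4 to 7 lower. Psmb7 ran from -0.035 to 0.0038, changing sign without ZA 1. The depth behind a class I value was 1464 fragments or more.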
